A study of Homo sapiens with 6 samples.

Results

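Glycolysis and hypoxia response genes were followed as a group of 36 named genes: the oxygen-sensitive subunits of hypoxia-inducible factor (HIF), target genes of that factor, glucose and lactate carriers, and the enzymes that turn glucose into lactate. A gene was measured if the array annotation gave a probe set its symbol and no other, and the probe set with the highest mean over all arrays stood for it. This held for 33 of the 36 genes, among 11963 genes measured in the same way. The expression of CA9, SLC16A1 and SLC16A3 was not analysed here. The study compared 2 human colon cancer cell lines with 3 Affymetrix arrays each. HCT116 is an established colon cancer line, described by the labels as poorly metastatic. E1 is a metastatic line that the labels call derived in vivo, and the cell line field of its arrays also reads HCT116. The labels name neither the host nor the site from which E1 was taken, nor an oxygen level, a treatment or a time for either line. They call the arrays of a line triplicates without saying whether they came from separate cultures, so the spread behind each p-value is that among arrays and may be technical.

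Glycolysis converts glucose to pyruvate in the cytosol, and lactate dehydrogenase turns pyruvate to lactate when it does not enter the mitochondria. HIF is a pair of proteins: an alpha subunit (HIF1A or EPAS1) that is hydroxylated and degraded when oxygen is present, and a stable partner, ARNT. Low oxygen stabilises the alpha subunit, and the pair then switches on genes of glucose uptake, glycolysis, pH control, blood vessel growth and mitochondrial turnover. Because the alpha subunits are controlled mainly as proteins, their transcript is not a measure of pathway activity. Colon tumours commonly run high rates of glycolysis also when oxygen is available.

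The E1 arrays were not alike, and a glycolytic transcript shows it, since the array carries control probe sets at the 5' end, the middle and the 3' end of GAPDH. In HCT116 the GAPDH 5' probe set read 9806, 9408 and 9438. It read 8596, 209.9 and 94.0 on E1 arrays 1, 2 and 3. The 3' probe set read between 6761 and 7952 on all 6 arrays. The 3' to 5' ratio was thus 0.774 to 0.811 in HCT116, and 0.803, 34.1 and 71.9 in E1, and ACTB showed the same split. Differences with E1 array 1 alone against HCT116 are therefore given beside those with all arrays. Markers of the colon epithelium were read on both lines: KRT18 (5677 to 8466 over the arrays), EPCAM (1691 to 3428) and CDH1 (486 to 959), while VIL1, CDX1 and CDX2 had mean intensities of at most 13.1 in either line. The 10 epithelial markers summed to 16869 to 19485 in HCT116 and 11665 to 14676 in E1, and 0 of them were called. At an unadjusted p under 0.05, 2 of the 10 were lower in E1, beside 9.70% of all genes. They were KRT18 at -0.40 (-0.32 with E1 array 1 alone) and KRT8. KRT8 read 4693, 3169 and 4352 in HCT116 and 2862, 372 and 103 in E1, a difference of -2.91, or -0.48 with E1 array 1 alone. KRT19 stood at -0.80, or -0.18 with that array alone. Of the marker genes of other cells the summed intensity was 393 to 457 in HCT116 and 320.4 to 469 in E1 for 10 fibroblast genes, 146 to 174 and 115 to 192 for 8 endothelial genes, and 164 to 249 and 159.9 to 210.2 for 6 leukocyte genes. Their part in the results was not tested.

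**Figure D1:**
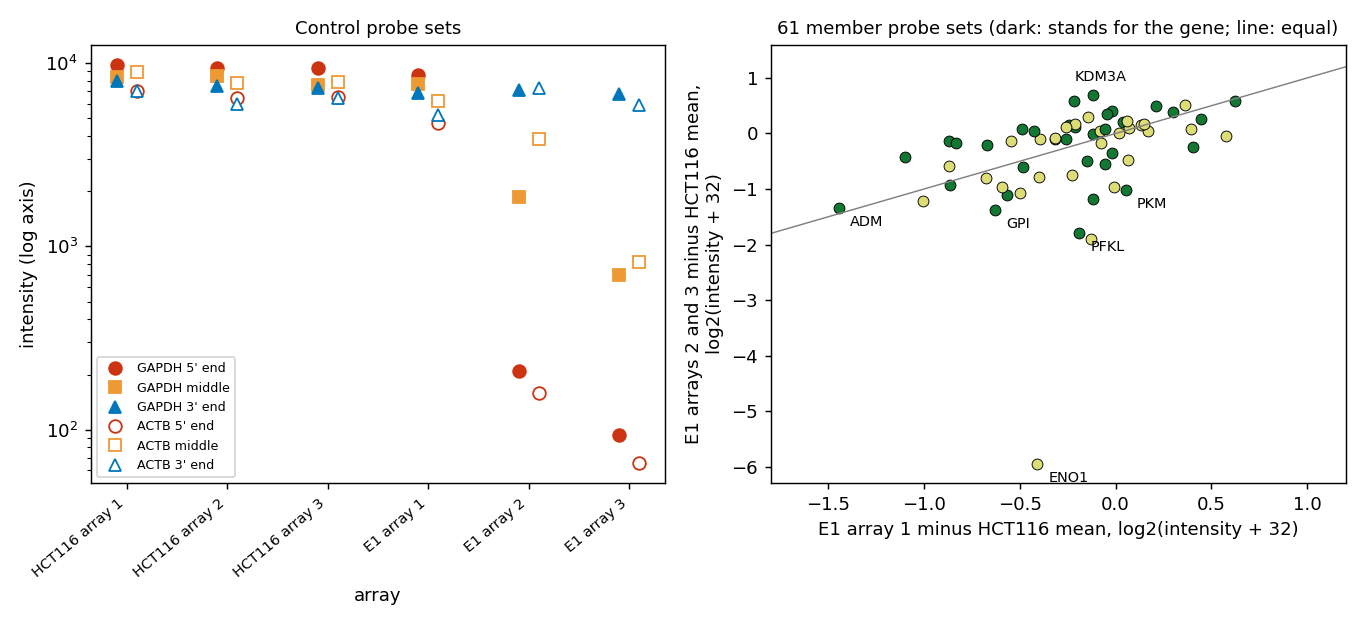
Left, intensity on a log axis of the control probe sets for the ends and middle of GAPDH (filled) and ACTB (open) on each array. Right, the 61 probe sets of the 33 genes, with the difference of log2(intensity + 32) from the HCT116 mean on E1 array 1 (x axis) and on the mean of E1 arrays 2 and 3 (y axis); the line marks equal values. The 5' control probe sets are low on E1 arrays 2 and 3, where 1 ENO1 probe set stands at -5.95 against -0.41 on E1 array 1.

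None of the 33 genes passed the test. Differences are of log2(intensity + 32), E1 minus HCT116, fitted with limma over all 11963 genes, and a gene counts as called when its Benjamini-Hochberg adjusted p is under 0.05. The share called among all genes was 0.418%, of which 0.217% was on the higher side and 0.201% on the lower. At an unadjusted p under 0.05 there were 9 of the 33 genes, beside 15.0% of all genes. They were 8 with lower values in E1, where 9.70% of all genes stood, and 1 with higher values, where 5.29% stood. These were ADM, PDK1, HK2, GPI, PFKFB4, PFKL, ALDOA and ALDOC on the lower side and PFKM on the higher. The E1 arrays lay wholly below the HCT116 arrays for 7 genes, beside 10.7% of all genes, and wholly above for 1, beside 8.18% (18.8% of all genes in either direction). ADM, GPI and PFKL were at least 2-fold lower, beside 4.55% of all genes, and 0 were at least 2-fold higher, beside 0.920%. The median difference of the 33 was -0.16, and 12 of the differences were above 0, beside 49.1% of all genes, whose median was -0.0055. Subtracting array medians moved the median of all genes to 0.14 and that of the 33 to -0.0062, a step that adds the same constant to every difference.

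With E1 array 1 alone, 0 of the 33 genes were called, beside 0.0167% of all genes. An unadjusted p under 0.05 was again found for 9 of them, beside 11.5%: 8 lower, beside 7.05% of all genes, and 1 higher, beside 4.44%. Of the 9, 6 were shared with the fit of all arrays and had the same sign in both: ADM, PDK1, HK2, GPI, ALDOA and PFKM. PFKFB4, PFKL and ALDOC stood below that p only with all arrays, and BNIP3, P4HA1 and PFKP only with E1 array 1 alone. Both fits used the HCT116 arrays and E1 array 1, so the sharing of genes and signs between them is in part built in. Without E1 array 1, 7 of the 33 were called, 6 lower (ADM, GPI, PFKL, ALDOA, ALDOC and PKM) and 1 higher (KDM3A). That fit rests on the E1 arrays with low 5' signal, and it called 8.97% of all genes, 7.33% lower and 1.64% higher. An unadjusted p under 0.05 was found there for 15 of the 33 genes, beside 24.5%. Leaving out any other array called 0 of the 33.

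**Figure D2:**
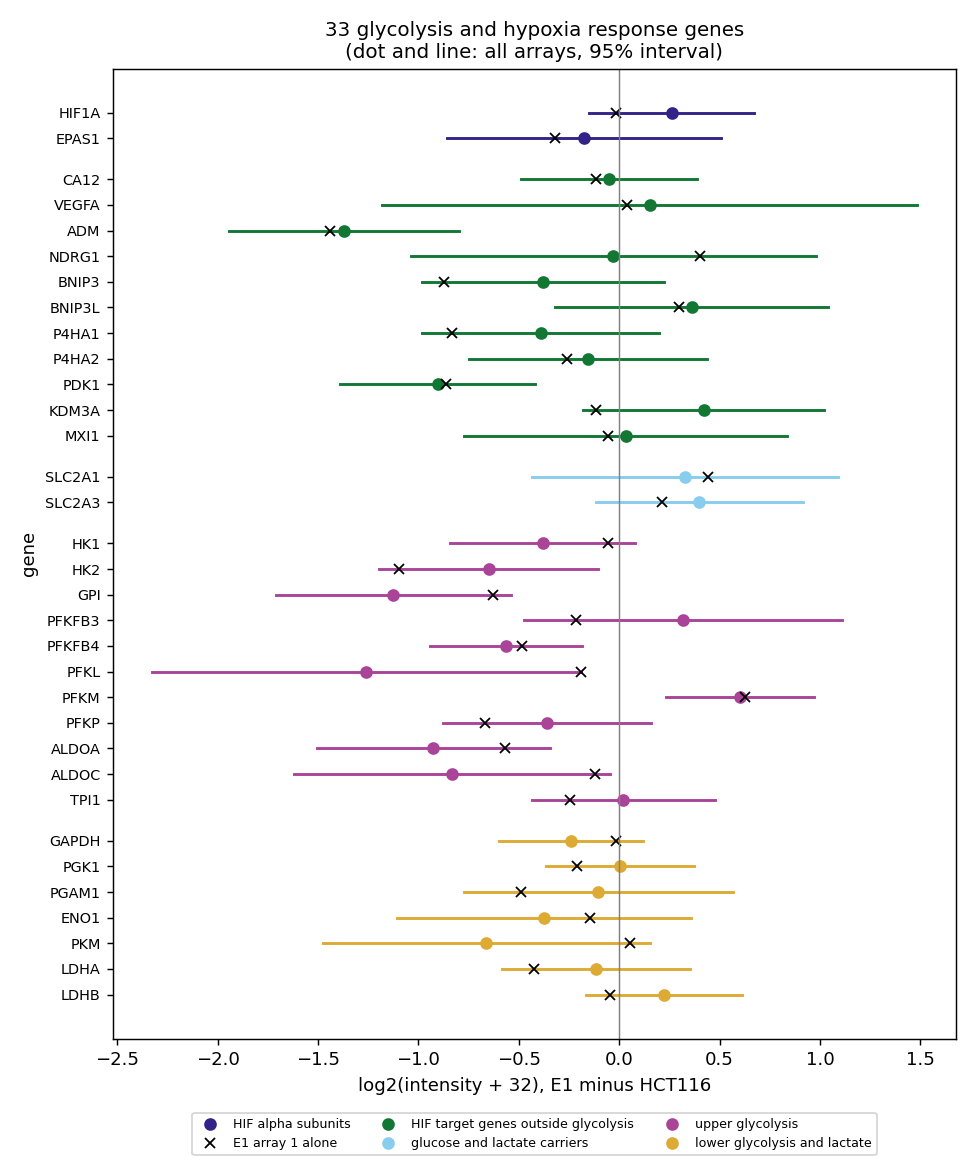
Difference of log2(intensity + 32) between E1 and HCT116 (x axis) for each of the 33 genes, grouped by role. Dots and lines are the fit of all 6 arrays with its 95% interval, crosses the value with E1 array 1 alone; ADM stands at -1.37 and -1.44, PFKL at -1.26 and -0.19.

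The transcripts of the HIF alpha subunits did not pass the test. HIF1A read 1548, 1440 and 1496 on the HCT116 arrays and 1475, 1809 and 2173 on the E1 arrays. E1 array 1 lay within the HCT116 range and the other two above it. The difference was 0.26 (95% interval -0.15 to 0.67, adjusted p = 0.529), and -0.018 with E1 array 1 alone. EPAS1, the alpha subunit also known as HIF-2 alpha, read 542, 627 and 366 in HCT116 and 395, 339 and 631 in E1, with overlapping arrays. The difference was -0.17 (95% interval -0.86 to 0.51), or -0.32 with E1 array 1 alone. Its other probe set was dim and did not overlap, at 44.4, 44.7 and 28.9 in HCT116 and 21.7, 17.0 and 3.03 in E1. That probe set stood at -0.65, or -0.40 with E1 array 1 alone.

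Of 17 measured regulators and partners of HIF out of 20 listed, 0 were called. The unadjusted p was under 0.05 for 3, beside 15.0% of all genes, and 2 of these were higher, beside 5.29%. Their median difference was 0.11, and -0.23 with E1 array 1 alone. The lower one was ARNT, the partner of both alpha subunits, which read 92.4, 118.8 and 92.6 in HCT116 and 47.3, 6.86 and 17.1 in E1. All E1 arrays were below all HCT116 arrays, and the difference was -1.32 (SE 0.27, adjusted p = 0.141), or -0.74 with E1 array 1 alone. The higher ones were CITED2, which competes with HIF for its coactivators, at 0.88 (SE 0.28), and HIF1AN, at 0.43 (SE 0.15). HIF1AN is the asparagine hydroxylase that blocks coactivator binding. CITED2 read 162, 98.7 and 115 in HCT116 and 198, 207 and 392 in E1, and HIF1AN 186, 137 and 165 against 211, 245 and 235, without overlap. With E1 array 1 alone CITED2 and HIF1AN stood at 0.57 and 0.32. EGLN1, with the next smallest p of the list, was lower without overlap. It read 284, 166 and 225 in HCT116 and 156, 156 and 159 in E1. Its difference was -0.42 (SE 0.19), or -0.42 with E1 array 1 alone. A shift of the regulators as a set was not tested.

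Among the HIF target genes outside glycolysis, ADM had the smallest unadjusted p. ADM encodes adrenomedullin, a secreted peptide that widens blood vessels. It read 832, 435 and 553 on the HCT116 arrays and 195, 227 and 200.2 on the E1 arrays. The E1 arrays lay close together and all below the lowest HCT116 array. The difference was -1.37 (SE 0.24, adjusted p = 0.101), which is 2.58-fold lower on the log2(intensity + 32) scale, and -1.44 with E1 array 1 alone. Its unadjusted p was also the smallest of all 33, at rank 104 of all genes.

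PDK1, the kinase that shuts pyruvate dehydrogenase and so keeps pyruvate out of the mitochondria, gave low signals. It read 40.1, 65.0 and 29.3 in HCT116 and 9.50, 3.82 and 12.0 in E1. The arrays did not overlap, and the difference was -0.90 (SE 0.20, adjusted p = 0.154), or -0.86 with E1 array 1 alone. Whether its E1 values lay above background was not tested, so the size of the difference is uncertain.

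The other 9 target genes had overlapping arrays. BNIP3 and BNIP3L, mitochondrial proteins that mark mitochondria for removal, stood at -0.38 (SE 0.25) and 0.36 (SE 0.28). P4HA1 and P4HA2, the catalytic subunits of collagen prolyl hydroxylase, stood at -0.39 (SE 0.25) and -0.16 (SE 0.25). With E1 array 1 alone BNIP3 stood at -0.87, BNIP3L at 0.30, P4HA1 at -0.83 and P4HA2 at -0.26. BNIP3 read 428, 393 and 497 in HCT116 and 225, 339.7 and 458 in E1, so that the low value belonged to E1 array 1 and the array with the most 5' loss lay within the HCT116 range. P4HA1 had the same order in E1, at 248, 364 and 461 against 532, 378 and 502. The histone demethylase KDM3A went the other way: it read 238, 208 and 253 in HCT116 and 212 on E1 array 1, but 372 and 419 on E1 arrays 2 and 3, for a difference of 0.42 (SE 0.25) with all arrays, against -0.12 with E1 array 1 alone. The carbonic anhydrase CA12 stood at -0.05 (SE 0.18) and MXI1, an antagonist of MYC, at 0.03 (SE 0.34), or -0.12 and -0.057 with E1 array 1 alone.

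VEGFA and NDRG1 varied widely within a line. VEGFA, the growth factor of blood vessels, read 173, 803 and 188 on the HCT116 arrays and 312, 267 and 469 on the E1 arrays. HCT116 array 2 was 4.65 times the lowest HCT116 array, and the difference between lines was 0.15 (95% interval -1.18 to 1.48), or 0.039 with E1 array 1 alone. The 3 other VEGFA probe sets were also highest on HCT116 array 2, at 306, 169 and 493. They stood at -0.76, -1.15 and -0.57 (-0.68, -1.005 and -0.23 with E1 array 1 alone), whereas the probe set that stood for the gene was above 0. NDRG1, a stress-response protein induced by low oxygen, read 584, 1346 and 725 in HCT116 and 1110.01, 465 and 1032 in E1, with a difference of -0.03 (95% interval -1.04 to 0.98), or 0.40 with E1 array 1 alone. HCT116 array 2 held the highest HCT116 value for 11 of the 33 genes and the lowest for 18, among them ADM, P4HA1, P4HA2 and CA12. Without HCT116 array 2, NDRG1 stood at 0.31 and VEGFA at 0.81, and neither was called.

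The genes also differed in how their own probe sets read, and BNIP3L and ENO1 had bright probe sets more than 1 apart. For BNIP3L the probe set that stood for the gene read 281, 390.2 and 300.06 in HCT116 and 402, 289.6 and 634 in E1, for 0.36. The other one read 319, 519 and 312 in HCT116 and 189, 193 and 292 in E1, for -0.68 (-0.87 with E1 array 1 alone), with all E1 arrays below HCT116. The direction for BNIP3L thus depends on the probe set.

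Both measured glucose carriers had positive differences that did not pass the test. SLC2A1, the main glucose carrier GLUT1, read 589, 726 and 855 in HCT116 and 985, 564 and 1331 in E1, with overlapping arrays and a difference of 0.33 (95% interval -0.44 to 1.09), or 0.44 with E1 array 1 alone. SLC2A3, the carrier GLUT3, gave signals of at most 36.9 on any array, and its difference was 0.40 (SE 0.21), or 0.21 with E1 array 1 alone.

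The next group was the enzymes of the first, ATP-consuming stage and the regulators PFKFB3 and PFKFB4. Of its 11 genes, 6 on the lower side and 1 on the higher had an unadjusted p under 0.05, beside 9.70% and 5.29% of all genes. The median difference of the 11 was -0.56, or -0.24 with E1 array 1 alone. Among the 6, PFKL and ALDOC stood at -1.26 and -0.83 with all arrays, against -0.19 and -0.12 with E1 array 1 alone. Hexokinase 2, HK2, which traps glucose in the cell as glucose 6-phosphate, read 310.04, 387 and 342 in HCT116 and 144, 225 and 274 in E1. The E1 arrays were all lower, with E1 array 1 the lowest. The difference was -0.65 (SE 0.23, adjusted p = 0.281) with all arrays, against -1.10 with E1 array 1 alone. The other HK2 probe set was dim and had overlapping arrays, at -0.20, or -0.40 with E1 array 1 alone. Of 10 alternative analyses that kept all 6 arrays, 6 gave HK2 an unadjusted p under 0.05. The other hexokinase, HK1, stood at -0.38 (SE 0.19) and at -0.057 with E1 array 1 alone.

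GPI, the isomerase of the second step, read 3233, 3143 and 3231 on the HCT116 arrays, which agreed within 1.03-fold, and 2059, 1405 and 1055 on the E1 arrays. All E1 arrays were lower, and the difference was -1.12 (SE 0.24, adjusted p = 0.145) with all arrays, against -0.63 with E1 array 1 alone. ALDOA, the main aldolase, which splits the sugar into trioses, read 5803, 5093 and 5244 in HCT116 and 3612, 3151 and 1956 in E1. Its difference was -0.92 (SE 0.24, adjusted p = 0.204), -0.57 with E1 array 1 alone, and its other probe set stood at -0.84 and -0.59. For both genes E1 array 3, the array with the highest 3' to 5' ratio, was the lowest, and E1 array 1 was still below every HCT116 array.

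The subunits of phosphofructokinase, the committed step of glycolysis, did not share a direction. PFKM, the muscle-type subunit, read 811, 969 and 903 in HCT116 and 1393, 1196 and 1549 in E1. Every E1 array was above every HCT116 array, and the difference was 0.60 (SE 0.15, adjusted p = 0.194) with all arrays, against 0.62 with E1 array 1 alone. PFKL, the liver-type subunit, read 426, 532 and 411 in HCT116 and 394, 121 and 96.0 in E1. E1 array 1 was thus near the HCT116 values, and the difference was -1.26 (SE 0.45, adjusted p = 0.284) with all arrays, against -0.19 with E1 array 1 alone. PFKP, the platelet-type subunit, stood at -0.36 (SE 0.22), and at -0.67 with E1 array 1 alone.

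The bifunctional enzymes that set the level of fructose 2,6-bisphosphate, the activator of phosphofructokinase, were PFKFB3 at 0.32 (SE 0.33) and PFKFB4 at -0.56 (SE 0.16). With E1 array 1 alone they stood at -0.22 and -0.48. PFKFB4 gave dim signals, 20.1, 29.5 and 38.9 in HCT116 and 11.7, 7.41 and 8.99 in E1, which did not overlap; whether they lay above background was not tested. The brain-type aldolase ALDOC read 499.7, 358 and 431 in HCT116 and 390.05, 145 and 196 in E1. Only E1 arrays 2 and 3 were below HCT116, and the difference was -0.83 (SE 0.33) with all arrays, against -0.12 with E1 array 1 alone. Triose phosphate isomerase, TPI1, stood at 0.021 (95% interval -0.43 to 0.48), or -0.24 with E1 array 1 alone.

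**Figure D3:**
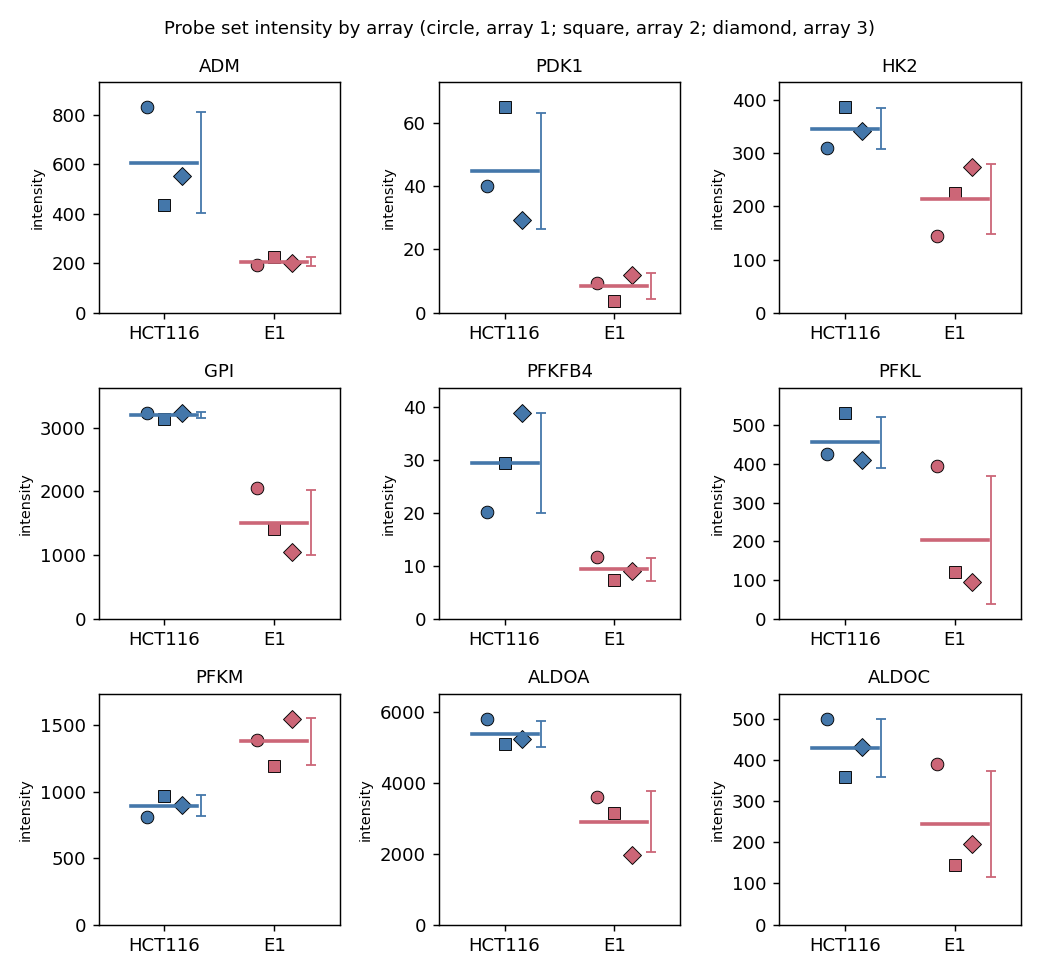
Intensity on each array (points) with the mean (bar) and SD (error bar, n = 3) for the 9 genes with an unadjusted p under 0.05; each vertical axis starts at 0. For PFKL and ALDOC E1 array 1 (circle) stands apart from E1 arrays 2 and 3, and for PFKM all E1 arrays are above 1196 or at it.

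Of the 7 genes of the second, ATP-yielding stage and of lactate formation, 0 had an unadjusted p under 0.05, beside 15.0% of all genes. All had overlapping arrays. Their median difference was -0.11, or -0.15 with E1 array 1 alone. GAPDH, which oxidises glyceraldehyde 3-phosphate, read 8030.03, 8287 and 7516 in HCT116 and 7838, 6298 and 6127 in E1, a difference of -0.24 (95% interval -0.60 to 0.12), or -0.018 with E1 array 1 alone. Its other 2 probe sets stood at -0.29 and -0.64, or 0.064 and -0.0089 with that array alone. PGAM1, phosphoglycerate mutase, stood at -0.10 (95% interval -0.77 to 0.57), or -0.49 with E1 array 1 alone. LDHA, the lactate dehydrogenase chain that HIF induces, read 6132, 4651 and 5968 in HCT116 and 4117, 5789 and 5615 in E1, with a difference of -0.11 (95% interval -0.58 to 0.35), or -0.43 with E1 array 1 alone. LDHB, the other chain, read 4950.1, 5252 and 5375 against 5025, 6324 and 7007, with a difference of 0.22 (95% interval -0.17 to 0.61), or -0.046 with E1 array 1 alone.

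For ENO1, PKM and PGK1 the value depended on the array or the probe set. The enolase ENO1 read 6055, 4801 and 5877 in HCT116 and 5009.8, 5849.97 and 2655 in E1 with the probe set that stood for it, a difference of -0.38 (SE 0.31), or -0.15 with E1 array 1 alone. Another ENO1 probe set read 4736, 3588 and 4191 in HCT116 and 3115 on E1 array 1, but 24.5 and 48.8 on E1 arrays 2 and 3. That is -0.41 on E1 array 1 and -5.95 on the other two, next to -5.78 for the 5' control probe set of GAPDH. The remaining ENO1 probe set stood at 0.16, or 0.15 with E1 array 1 alone. Where these probe sets lie along the transcript was not analysed here.

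Pyruvate kinase, PKM, read 5284, 4472 and 4536 in HCT116 and 4938, 2893 and 1868 in E1, with a difference of -0.66 (SE 0.34) with all arrays, against 0.056 with E1 array 1 alone. Phosphoglycerate kinase, PGK1, read 3027, 2714 and 3149 in HCT116 and 2548, 3079.9 and 3323 in E1, a difference of 0.0040 (95% interval -0.37 to 0.37), or -0.21 with E1 array 1 alone. Of the other PGK1 probe sets 2 stood at 0.044 and -0.013 (-0.21 and -0.26 with E1 array 1 alone), and 1 read 2305, 2249 and 2229.7 in HCT116 and 1592, 1303 and 867 in E1, at -0.88 (-0.50 with that array alone). Of the 61 probe sets of the 33 genes, 5 were at least 2-fold lower on the mean of E1 arrays 2 and 3 than on E1 array 1, or 8.20%, beside 6.30% of all probe sets with 1 symbol. They were 1 of ENO1, 2 of PFKL, 1 of PKM and 1 of ALDOC. At least 2-fold higher were 0 of the 61, beside 1.14% of all probe sets with 1 symbol. Among probe sets with a mean intensity of at least 100, the share at least 2-fold lower was 11.4%, beside 10.7% of all. For 19 of the 33 genes the probe set's name ends in _x_at or _s_at, which marks probes that match several transcripts, and several of these enzymes have near-identical processed copies in the genome.

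**Figure D4:**
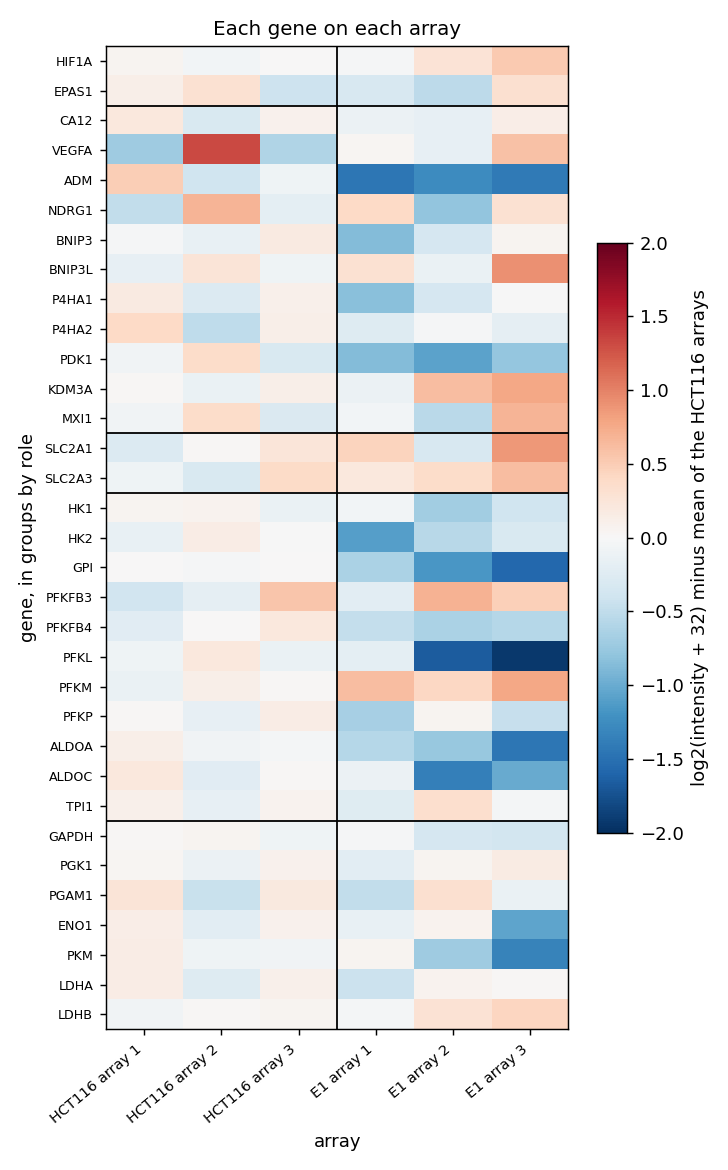
Colour gives log2(intensity + 32) on each array minus the mean of the HCT116 arrays, for the 33 genes in groups by role; the scale runs from -2 to 2. ADM is low on all E1 arrays, PFKL and PKM mainly on E1 arrays 2 and 3, and VEGFA is high on HCT116 array 2.

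Promoters are shown for 3 of the genes whose arrays did not overlap. Without overlap the sign with E1 array 1 alone is necessarily the same, so that sign was no further screen. They are ADM and HK2, lower in E1, and PFKM, higher, and were picked by hand. HIF binds a short core, searched here as ACGTG or GCGTG on both strands, and capitals mark each match (on the other strand it reads CACGT or CACGC). A match may overlap the E-box CACGTG, which other factors bind. Each window runs from 250 bases before to 50 after the gene's start in RefSeq (GRCh38.p14), and a gene can have further starts.
ADM, chr11:10304823-10305122, plus strand: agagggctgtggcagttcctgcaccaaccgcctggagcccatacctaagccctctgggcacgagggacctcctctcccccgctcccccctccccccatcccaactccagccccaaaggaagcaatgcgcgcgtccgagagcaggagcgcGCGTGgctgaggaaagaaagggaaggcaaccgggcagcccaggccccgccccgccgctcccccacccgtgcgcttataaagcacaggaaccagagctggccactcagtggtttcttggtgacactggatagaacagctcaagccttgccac
HK2, chr2:74833877-74834176, plus strand: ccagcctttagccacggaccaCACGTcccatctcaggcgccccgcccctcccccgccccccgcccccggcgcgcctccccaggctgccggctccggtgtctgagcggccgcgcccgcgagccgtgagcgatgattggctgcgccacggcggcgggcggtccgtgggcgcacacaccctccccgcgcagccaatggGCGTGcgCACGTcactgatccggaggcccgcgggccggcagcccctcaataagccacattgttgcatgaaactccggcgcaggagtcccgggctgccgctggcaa
PFKM, chr12:48105623-48105922, plus strand: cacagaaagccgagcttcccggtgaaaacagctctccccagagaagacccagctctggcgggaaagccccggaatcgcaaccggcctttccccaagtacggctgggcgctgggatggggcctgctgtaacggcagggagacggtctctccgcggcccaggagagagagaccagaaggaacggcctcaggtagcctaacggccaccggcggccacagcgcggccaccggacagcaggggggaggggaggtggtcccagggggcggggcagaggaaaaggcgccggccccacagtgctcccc
The ADM window holds 1 match, the HK2 window 3 and the PFKM window 0. The other genes whose arrays did not overlap were all lower in E1. Of these, GPI, PFKFB4, PFKL and ALDOA have 1 match each and PDK1 has 0. Whether matches go with the direction of a difference was not tested. Of the 36 listed genes 31 had a window, among them CA9 and SLC16A3, whose expression was not analysed here. At least 1 match was held by 22 of the 31, or 71.0%, beside 48.4% of all 35116 windows. For 2 or more matches it was 8 of the 31, or 25.8%, beside 23.1%. All windows include those of genes that encode no protein. LDHA, whose arrays overlapped between the lines, had 6 matches, but its window holds 2 E-boxes, and each of these is counted once on either strand. A match is a run of letters and not evidence of binding.

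Genes next to glycolysis and further HIF targets were read from lists. Of 31 measured hypoxia targets out of 33 listed, 0 were called. An unadjusted p under 0.05 was found for 1 on the higher side and 5 on the lower, beside 5.29% and 9.70% of all genes. The median was -0.10, or -0.18 with E1 array 1 alone. CCNG2, a cyclin that slows the cell cycle, was the higher one, at 0.94 (SE 0.22). FAM162A stood at -0.52 (SE 0.15), with 1646, 1294 and 1453 in HCT116 and 899, 1097 and 1024 in E1. ANGPTL4, a secreted inhibitor of lipoprotein lipase, stood at -0.65 (SE 0.21). All 3 had arrays that did not overlap, and with E1 array 1 alone they stood at 0.68, -0.68 and -0.59. The remaining lower genes were DDX41 at -0.52 (SE 0.17), AK4 at -0.75 (SE 0.27) and ANKZF1 at -0.64 (SE 0.25). With E1 array 1 alone these stood at -0.22, -0.89 and -0.39, and AK4 and ANKZF1 had overlapping arrays.

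Of 19 measured further enzymes and carriers of glycolysis out of 21, 0 were called. An unadjusted p under 0.05 was found for ENO2 on the higher side, beside 5.29% of all genes, and for BSG and TIGAR on the lower, beside 9.70%. ENO2, the neuronal enolase, read 173, 75.4 and 170.4 in HCT116 and 289, 319.9 and 303 in E1, without overlap, a difference of 1.03 (SE 0.27) with all arrays, against 0.97 with E1 array 1 alone. BSG, basigin, the chaperone of the lactate carriers, read 1193, 1297 and 1223 in HCT116 and 737, 148 and 99.7 in E1, a difference of -2.27 (SE 0.62) with all arrays, against -0.72 with E1 array 1 alone. TIGAR, a phosphatase that lowers fructose 2,6-bisphosphate, stood at -0.55 (SE 0.22), or -0.98 with E1 array 1 alone.

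Of 13 measured genes out of 14 on a list for pyruvate oxidation, 0 were called. At an unadjusted p under 0.05, 1 was lower, beside 9.70% of all genes. That gene was PC, pyruvate carboxylase, which makes oxaloacetate from pyruvate and is not an enzyme of pyruvate oxidation. PC stood at -0.82 (SE 0.33) with all arrays, against -0.18 with E1 array 1 alone. PDPR, a regulator of pyruvate dehydrogenase phosphatase, stood at -0.29 (SE 0.13), or -0.39 with E1 array 1 alone. DLD, the dehydrogenase subunit shared by several complexes, had the opposite sign with that array alone, at 0.28 (SE 0.22) with all arrays, against -0.15. Of 7 measured genes of the pentose phosphate pathway out of 8, 0 were called and 0 had an unadjusted p under 0.05, beside 15.0% of all genes. TKT, transketolase, read 2509.5, 2513 and 2189 in HCT116 and 2588 on E1 array 1, but 989.9 and 691 on E1 arrays 2 and 3, a difference of -0.96 (SE 0.45), or 0.11 with E1 array 1 alone. PGD stood at -1.15 (SE 0.59) with all arrays, against 0.15 with E1 array 1 alone, and PGLS at -0.68 (SE 0.34) and -0.055.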

How the data were processed

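The authors deposited a linear intensity for each of 22283 probe sets on every array; how it was summarized and scaled is not stated in the labels. Per the labels, Trizol was used for the RNA and biotin as the label. Each array's median intensity was 48.0 to 66.5, and the number of arrays limits the precision.

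Values were taken as log2(intensity + 32) without further normalization, and the offset understates changes of dim genes. No test included the 68 control probe sets. Of the remaining 22215, 19065 carried 1 symbol, 1043 several and 2107 none in the platform annotation, and the brightest stood for each of 11963 genes. Symbols were checked by Entrez number against RefSeq (GRCh38.p14), which changed 0. E1 was compared with HCT116 in limma 3.58.1 (R 4.3.3; lmFit and eBayes), two-sided, with Benjamini-Hochberg adjustment over all genes. The script was tested on simulated data. Members and lists were chosen with earlier results of these data known. Values in every array are given for genes with an unadjusted p under 0.05, HIF1A, EPAS1, GAPDH and the 6 brightest members. They are also given for members whose bright probe sets (mean at least 100) differ by over 1, with others added after their values were seen. Of each further list the 3 genes with the smallest p are named, and EGLN1, DDX41, AK4 and ANKZF1 were added after their values were seen. Alternatives were quantile normalization, subtraction of array medians, offsets of 1 and 100, leaving out the dimmest 40% of genes, averaging the probe sets of a gene, leaving out _x_at and _s_at probe sets, trended and robust eBayes, a replicate block, leaving out each array, E1 array 1 alone (spread taken from HCT116), and the GAPDH 3' to 5' ratio as a covariate.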

Additional observations from a re-analysis of the deposited data

How the results depend on the processing

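With 3 arrays per line, 2 of them with low 5' signal in E1, none of the 33 genes was called in any of the 10 alternatives that kept all 6 arrays, nor with E1 array 1 alone. Of the 10, the fit with the GAPDH ratio as a covariate comes close to E1 array 1 alone and is not a separate check. That ratio was 0.774 to 0.811 in HCT116 and 0.803 on E1 array 1, against 34.1 and 71.9 on E1 arrays 2 and 3. Leaving out 1 array in turn gave 0 to 7 called members, 7 to 15 at an unadjusted p under 0.05, and 2 to 1073 called among all genes. Among all genes 50 were called with all arrays, 10 with an offset of 100, 8 when _x_at and _s_at probe sets were left out, and 2 each with the replicate block, with E1 array 1 alone and with the GAPDH ratio as a covariate. Of the 50, 26 were higher and 24 lower in E1; quantile normalization gave 43 and 20, and subtraction of array medians 45 and 21. Members at an unadjusted p under 0.05 numbered 5 without those probe sets, where 18 members were tested. The members' median stayed negative in every alternative. Deviations of same-numbered arrays correlated at -0.056, -0.36 and -0.12. Those of E1 include the split in 5' signal, so they cannot show whether the replicate numbers pair the arrays. The replicate block left 0 members called and 9 at an unadjusted p under 0.05.

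Of 543 values of single members under the alternatives, 50 had the other sign, for 15 genes, none of them called in the main analysis; the cause was not tested. With quantile normalization they were CA12 at 0.16, NDRG1 at 0.065 and P4HA2 at 0.0022. With array medians subtracted they were CA12 at 0.099, NDRG1 at 0.12, PGAM1 at 0.045 and LDHA at 0.035. When the probe sets of a gene were averaged they were CA12 at 0.015, VEGFA at -0.58, BNIP3L at -0.16 and PGK1 at -0.21, and without _x_at and _s_at probe sets CA12 at 0.016. With E1 array 1 alone they were HIF1A at -0.018, NDRG1 at 0.40, KDM3A at -0.12, MXI1 at -0.057, PFKFB3 at -0.22, TPI1 at -0.24, PGK1 at -0.21, PKM at 0.056 and LDHB at -0.046. With the GAPDH ratio as a covariate they were HIF1A at -0.036, VEGFA at -0.025, NDRG1 at 0.30, KDM3A at -0.12, MXI1 at -0.17, PFKFB3 at -0.18, TPI1 at -0.20, PGK1 at -0.22, PKM at 0.096 and LDHB at -0.053. Leaving out 1 array in turn gave CA12 from -0.20 to 0.056, VEGFA from -0.20 to 0.81, P4HA2 from -0.41 to 0.046, MXI1 from -0.30 to 0.31, PGAM1 from -0.33 to 0.088, NDRG1 from -0.27 to 0.35, TPI1 from -0.14 to 0.15, PGK1 from -0.077 to 0.11 and LDHA from -0.24 to 0.041.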
